A study of Mus musculus with 12 samples.

Results

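Neurexins, neuroligins and leucine-rich repeat transmembrane proteins (LRRTMs) are adhesion proteins that meet across the synaptic cleft, and 9 of the 24480 genes in the RNA-seq tables were followed here by their symbols, *Nrxn2*, *Nrxn3*, *Nlgn1*, *Nlgn2*, *Nlgn3*, *Lrrtm1*, *Lrrtm2*, *Lrrtm3* and *Lrrtm4*. The libraries came from the dorsal lateral geniculate nucleus (dLGN), the visual relay nucleus of the thalamus, of mice at postnatal day 0 (P0), and each library pooled 3 animals. Mutants of the *Sox2* line were Sox2flox/flox;Ror-alphaCre, and their controls were Sox2flox/flox or Sox2flox/+ without Cre. Mutants of the *Nr2f1* line were homozygous for the floxed *Nr2f1* allele and carried the same Cre. The labels of the *Nr2f1* controls name the Cre allele and also say that Cre is absent, and by the study's methods these were littermates without Cre. All 4 groups therefore carried at least 1 floxed allele, and there were 3 libraries in each. Cre is expressed from the *Rora* locus. According to the study, it deletes in sensory thalamic cells that no longer divide, and spares retina and cortex early in development. Whether glia and vessels in the dissected tissue keep the targeted gene was not tested. Because the controls lacked Cre, the loss of the targeted gene and the presence of the Cre allele cannot be told apart.

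Neurexins sit on the axon terminal, and neuroligins and LRRTMs sit on the dendrite, where they bind neurexins and gather scaffolds and receptors. Neuroligin 1 is found mainly at excitatory synapses and neuroligin 2 at inhibitory ones, whereas LRRTMs act at excitatory synapses. In the visual thalamus LRRTM1 is known for its part in assembling the complex synapses that retinal axons make on relay cells.

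In *Sox2* mutants *Lrrtm1* fell to 50.3% and *Nrxn3* to 61.9% of the control level. In *Nr2f1* mutants *Nrxn3* fell to 72.0%, and *Lrrtm4* rose to 199%. The change of *Lrrtm1* differed between the mutants. The remaining 6 genes passed the test in neither line.

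Of the 3 genes called in either line, *Lrrtm1* and *Lrrtm4* lie on chromosome 6 and *Nrxn3* on chromosome 12. In GRCm38.p6 *Lrrtm1* occupies chr6:77229210-77259915 on the plus strand, inside *Ctnna2*, which encodes an alpha-catenin and runs on the opposite strand. *Lrrtm4* lies at chr6:80018858-80810162 and *Nrxn3* at chr12:88722701-90334935, both on the plus strand. *Lrrtm2* and *Lrrtm3* likewise lie inside *Ctnna1* and *Ctnna3* on the opposite strand. None of the RefSeq exons of these 3 LRRTM genes overlapped a RefSeq exon of the host gene (0 of 4 for *Lrrtm1*, 0 of 2 for *Lrrtm2* and 0 of 3 for *Lrrtm3*), whereas 2 of 4 annotated exons of *Lrrtm2* did when all GENCODE transcripts were taken. Whether counting used strand is not given in the sources used here.

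SOX2 and NR2F1 are transcription factors, so windows at annotated transcript starts of the 3 called genes are shown. There is 1 for each gene (the first promoter entry listed for it), from RefSeq sequence of GRCm38.p6. Each runs from 250 bases before to 50 bases after a transcription start, on the plus strand, with CpG dinucleotides in capitals. For *Lrrtm1* and *Nrxn3* this start lies inside the gene, which begins at chr6:77229210 and chr12:88722701, so the window is not at the gene's first base. Whether these starts are used in this tissue was not tested, so the windows may not be the promoters in use.
Lrrtm1, chr6:77242227-77242526: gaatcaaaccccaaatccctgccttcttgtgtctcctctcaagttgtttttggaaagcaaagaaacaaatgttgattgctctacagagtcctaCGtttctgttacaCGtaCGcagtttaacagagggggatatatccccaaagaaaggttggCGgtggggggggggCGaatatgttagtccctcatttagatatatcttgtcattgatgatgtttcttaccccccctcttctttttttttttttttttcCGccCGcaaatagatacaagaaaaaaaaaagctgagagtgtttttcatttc
Lrrtm4, chr6:80018627-80018926: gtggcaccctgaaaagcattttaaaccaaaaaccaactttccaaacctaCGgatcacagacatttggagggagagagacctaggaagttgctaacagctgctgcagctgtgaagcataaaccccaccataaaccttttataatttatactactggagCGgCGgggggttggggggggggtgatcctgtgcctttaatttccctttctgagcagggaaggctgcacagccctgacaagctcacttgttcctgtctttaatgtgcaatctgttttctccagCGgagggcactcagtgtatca
Nrxn3, chr12:88794254-88794553: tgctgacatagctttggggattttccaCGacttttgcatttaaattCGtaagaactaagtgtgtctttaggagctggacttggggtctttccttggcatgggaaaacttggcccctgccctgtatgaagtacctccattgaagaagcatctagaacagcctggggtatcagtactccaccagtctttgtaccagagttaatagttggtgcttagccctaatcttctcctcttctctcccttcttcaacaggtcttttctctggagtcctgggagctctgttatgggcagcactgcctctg
The window of *Lrrtm1* held 7 CpGs with a GC content of 40.7%, against medians of 7 CpGs and 52.7% over 32851 promoters. The windows of *Lrrtm4* and *Nrxn3* held 4 and 2 CpGs. *Lrrtm4* has another entry with 9 CpGs, and *Nrxn3* has 2 others with 6 and 16. The core of the SOX motif, CATTGT, is present on either strand in 12.6% of all promoters. The nuclear receptor half-site AGGTCA, which shares no overlap with it, is present on either strand in 16.3%. Neither was found in the 10 entries that 6 of the 9 genes have in that table, which says only that these letters are not in these windows. *Nrxn2* and *Nlgn3* have no entry, and the promoter of *Lrrtm2* was not analysed here.

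Library totals were between 39293465 and 50095344 counts. Levels are given in CPM after TMM normalization in each line separately, so that they are comparable between libraries of the same line. Library names are those of the count tables. *Sox2* was lower in every library of its mutants (116 to 152 CPM) than in its controls (361 to 382), and *Nr2f1* likewise (101 to 151 against 311 to 380.1). *Sox2* was also lower in *Nr2f1* mutants, by a log2 fold change of -0.55 (edgeR FDR = 0.00635). Listed markers of neurons of any kind summed to 10029.9 and 10257 CPM in *Sox2* controls CTRL_1 and CTRL_2 but to 8717 in CTRL_3, in which the fibroblast list was at 2029 CPM against 1094 and 1079. Because CTRL_3 stands apart, the values of the 9 genes in the *Sox2* line are also given without it. Among the mutants, MUT_3 stood apart on the fibroblast list, at 3425 CPM against 1611 and 1911. Without MUT_3 the log2 fold change was -0.21 for *Nlgn1* (edgeR FDR = 0.220) and -0.13 for *Lrrtm2* (FDR = 0.485). *Lrrtm1* (-0.99, FDR = 5.70e-04) and *Nrxn3* (-0.75, FDR = 8.07e-04) stayed called without MUT_3. None of the markers of any cell type list was at 0 throughout.

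Per transcript length, the order of the 9 genes was the same in the controls of the *Sox2* line and of the *Nr2f1* line except for the lowest pair. *Nrxn2* was the most abundant, at 482 ± 42.9 TPM in *Sox2* controls (SD, n = 3). *Nlgn2* followed with 238 ± 13.3 TPM, then *Lrrtm1* with 103.0 ± 8.72 and *Nrxn3* with 75.3 ± 5.34 TPM. *Nlgn3* was at 38.1 ± 5.38, *Nlgn1* at 25.7 ± 3.16 and *Lrrtm2* at 11.9 ± 1.57 TPM. *Lrrtm4* (8.53 ± 0.98) and *Lrrtm3* (8.47 ± 0.786) differed by less than their spread, and they stood in the opposite order in *Nr2f1* controls (7.80 ± 0.521 and 9.32 ± 1.06 TPM). These levels divide by the mean length of the annotated transcripts, and with the longest transcript *Nrxn3* would be at 54.5 TPM in *Sox2* controls. The order of the lowest pair depends on this choice. With the longest transcript *Lrrtm3* was above *Lrrtm4* in *Sox2* controls (8.99 and 7.09 TPM) and in *Nr2f1* controls (9.91 and 6.50 TPM).

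All 9 genes passed the filter on low counts in both lines. By edgeR's quasi-likelihood test at FDR below 0.01, adjusted over all genes tested, 2 of the 9 were called in *Sox2* mutants, both lower. Of all 15602 genes tested in that line 8.08% were called, 3.90% higher and 4.19% lower. In *Nr2f1* mutants 2 of the 9 were called, 1 higher and 1 lower, where 2.54% of 15600 genes were called, 1.22% higher and 1.32% lower. The median log2 fold change of the 9 was -0.19 in *Sox2* mutants and -0.07 in *Nr2f1* mutants, and over all genes tested it was 0.000497 and 0.0138. With 2 calls of 9 in each line these are small counts, and they describe single genes rather than the family.

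**Figure D1:**
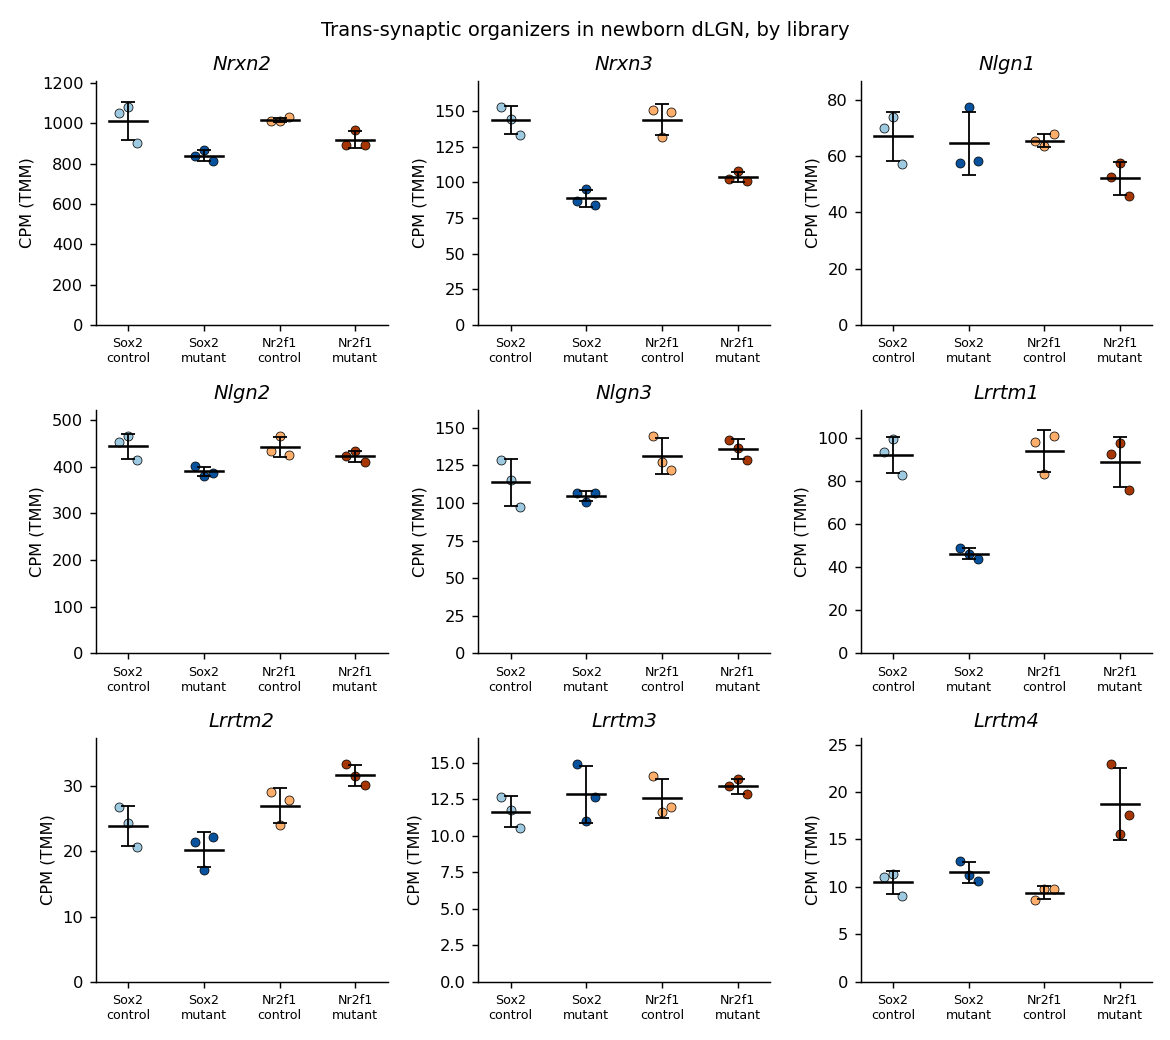
CPM after TMM normalization (vertical axes, from 0) of the 9 genes in each of the 12 libraries (points), with the mean (horizontal bar) and SD (error bar) of each group of 3. The 3 *Sox2* mutant libraries of *Lrrtm1* lie between 43.8 and 49.1 CPM, below their controls. The mutants of both lines lie below their controls for *Nrxn3*, and *Lrrtm4* is high in *Nr2f1* mutants. Scaling was done in each line separately.

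Among neurexins, *Nrxn3* was the one called. It was at 153, 145 and 133 CPM in *Sox2* controls CTRL_1, CTRL_2 and CTRL_3, and at 86.9, 95.5 and 84.1 CPM in mutants MUT_1, MUT_3 and MUT_4. The mutant libraries all lay below the control libraries, with a wide gap between the lowest control and the highest mutant. On the log2 scale the change was -0.69 ± 0.0756 (SE), at an edgeR FDR of 3.60e-04. Without CTRL_3 it was -0.73 (FDR = 1.69e-04).

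In *Nr2f1* controls CTRL_B, CTRL_D and CTRL_E *Nrxn3* was at 151, 132 and 149.6 CPM, and in mutants MUT_A, MUT_B and MUT_C at 102, 108 and 101 CPM. Here too the groups did not overlap. The fall came to -0.47 ± 0.0614 (SE) in log2 units (edgeR FDR = 0.00214). The call was lost, with a similar change, without CTRL_B (-0.44, FDR = 0.0138), without CTRL_E (-0.45, FDR = 0.0113) or without MUT_A (-0.46, FDR = 0.0184). The changes of *Nrxn3* in the mutants were not shown to differ (difference -0.21, 95% interval -0.42 to 0.000900, edgeR FDR = 0.312).

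In bulk tissue, fewer cells of a type and less RNA per cell cannot be told apart. Summed markers of neurons of any kind ranged from 8717 to 10257 CPM in *Sox2* controls and from 8589 to 9135 in mutants, with 2 of 12 called lower (*Elavl4* and *Syt1*). In *Nr2f1* controls and mutants they ranged from 10140.4 to 10422 and from 9015 to 9879 CPM, with 0 of 12 called by edgeR (6 at an unadjusted p under 0.05) and 2 by DESeq2. Markers of thalamic glutamatergic neurons summed to between 2329 and 2844 CPM in *Sox2* controls and to between 2136 and 2199 in mutants, with 2 of 12 called higher (*Calb2* and *Gbx2*) and 5 lower (*Lhx9*, *Nefm*, *Prox1*, *Rora* and *Slc17a6*). In *Nr2f1* controls and mutants they summed to between 2684 and 2897 and to between 2528 and 2880.4 CPM, with 3 of 12 higher (*Cacna1g*, *Lhx2* and *Prox1*) and 1 lower (*Nefm*). In *Sox2* mutants 10 of 11 microglial markers (sums of 149.6 to 169.6 CPM in controls and 314 to 369.6 in mutants) and 6 of 10 astrocyte markers (2054 to 2444 and 3060.5 to 3564 CPM) were higher. GABAergic markers summed to between 91.1 and 145 CPM in *Sox2* controls and to between 172 and 256 in mutants, with 0 of 10 called by edgeR (9 at an unadjusted p under 0.05) and 5 by DESeq2. Markers of midbrain-derived thalamic interneurons summed to between 72.8 and 85.0 CPM and to between 104 and 111, with 1 of 5 called higher (*Otx2*). Markers of pallial and hippocampal neurons summed to between 36.5 and 72.2 CPM and to between 63.3 and 196, with 2 of 9 called higher (*Bcl11b* and *Slc17a7*). The part of these shifts in the results for the 9 genes was not tested.

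*Nrxn2*, the most abundant of the 9, was at 1051, 1080.5 and 903 CPM in *Sox2* controls and at 836, 869 and 814 CPM in mutants. The groups did not overlap, but the mutant nearest to the controls was close to CTRL_3. The log2 fold change of -0.27 ± 0.0818 (SE) did not pass (edgeR FDR = 0.0457). It passed without CTRL_3 (-0.33, FDR = 0.00241) and, narrowly, with DESeq2 (-0.27, FDR = 0.00998). These were the only 2 of 14 alternatives that called it. The edgeR FDR was between 0.0748 and 0.179 without each other library, and 0.432 with the replicate number as a block (-0.19).

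In the *Nr2f1* line *Nrxn2* was at 1012, 1011 and 1030.2 CPM in controls and at 895, 966 and 894 CPM in mutants. These groups did not overlap either, and the change was -0.15 ± 0.0504 (SE) in log2 units (edgeR FDR = 0.109). Of *Nrxn2* and *Nrxn3* together, per transcript length, *Nrxn3* made up 13.5% ± 0.604 in *Sox2* controls and 10.4% ± 0.321 in mutants, and 13.5% ± 0.832 and 11.1% ± 0.121 in *Nr2f1* controls and mutants (SD, n = 3). The share was lower in each mutant library than in each control library of its line.

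None of the 3 neuroligins was called by edgeR in either line. At an unadjusted p under 0.05 there was 1 in each line, and DESeq2 called 0 in *Sox2* mutants and 1 in *Nr2f1* mutants. *Nlgn1* was at 69.9, 74.1 and 57.4 CPM in *Sox2* controls and at 57.7, 77.5 and 58.5 CPM in mutants, so that the groups overlapped. Its log2 fold change was -0.06 (95% interval -0.35 to 0.23, edgeR FDR = 0.789), and -0.15 without CTRL_3 (FDR = 0.420). In *Nr2f1* mutants *Nlgn1* was lower in every library, at 52.7, 57.7 and 46.0 CPM against 65.3, 63.5 and 68.0 CPM in controls. That change, -0.33 ± 0.0807 (SE), had an edgeR FDR of 0.0384 and did not pass. It passed with DESeq2 (FDR = 0.00236), with edgeR's likelihood ratio test (FDR = 0.00717) and without MUT_B (-0.41, FDR = 0.00754). These were the only 3 of 13 alternatives that called it, and the highest FDR among the alternatives was 0.122.

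*Nlgn2*, the neuroligin of inhibitory synapses, was at 454, 465 and 414 CPM in *Sox2* controls and at 401, 381 and 388 CPM in mutants. Every mutant library was below every control, yet the log2 fold change of -0.19 (95% interval -0.34 to -0.03) had an edgeR FDR of 0.0886. Without CTRL_3 it was -0.23 (FDR = 0.0158). In the *Nr2f1* line *Nlgn2* was at 435, 467 and 426 CPM in controls and at 423, 434 and 409.8 CPM in mutants, which overlap, and the change was -0.07 (edgeR FDR = 0.478). *Nlgn2* made up most of the neuroligin level per length in all groups, with means from 77.5% to 78.9%.

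*Nlgn3*, an X-linked gene whose protein is found at both kinds of synapse, was at 129, 115 and 97.4 CPM in *Sox2* controls and at 107, 101 and 107 CPM in mutants. It was at 145, 127 and 122 CPM in *Nr2f1* controls and at 142, 137 and 129 CPM in their mutants. The groups overlapped in both lines, with log2 fold changes of -0.12 (95% interval -0.33 to 0.09) and 0.05 (-0.11 to 0.21) and FDRs of 0.402 and 0.710 by edgeR. Without CTRL_3 the change in the *Sox2* line was -0.21 (FDR = 0.0414). The pools differed in sex, since *Xist*, which is transcribed from the inactive X of females, was between 0.189 and 579 CPM in *Sox2* controls and between 0.463 and 307 in mutants. In *Nr2f1* controls it was between 0.283 and 484 CPM, and in their mutants between 506 and 1150.1.

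Among the LRRTMs, *Lrrtm1* gave the largest change of the 9 genes in *Sox2* mutants. It was at 93.4, 99.7 and 82.9 CPM in *Sox2* controls CTRL_1, CTRL_2 and CTRL_3, and at 49.1, 46.0 and 43.8 CPM in mutants MUT_1, MUT_3 and MUT_4. All mutants were far below all controls. This is a log2 fold change of -0.99 ± 0.0841 (SE, 95% interval -1.18 to -0.80), with an edgeR FDR of 1.06e-04. It was -1.05 without CTRL_3 (FDR = 3.20e-05), and the call held in all 14 alternatives of the analysis.

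In *Nr2f1* controls *Lrrtm1* was at 98.1, 83.1 and 101 CPM, and in mutants at 92.6, 97.8 and 75.7 CPM. The mutant libraries lay among the controls except MUT_C, which was below them. Its log2 fold change was -0.09 (95% interval -0.31 to 0.14, edgeR FDR = 0.661). The difference between the changes in the lines was -0.90 ± 0.141 (SE, FDR = 0.00257), and *Lrrtm1* alone of the 9 was called in this interaction test. Over all 15989 genes in that test 1.44% were called, 0.331% with a higher change in *Sox2* mutants and 1.11% with a lower one. Without *Sox2* CTRL_2, *Sox2* MUT_4, *Nr2f1* CTRL_D or *Nr2f1* MUT_A the difference was -0.83, -0.85, -0.81 and -0.86, with FDRs between 0.0107 and 0.0130, which do not pass.

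*Ctnna2*, whose intron holds *Lrrtm1*, was not called. It was at 241, 248 and 215 CPM in *Sox2* controls and at 232, 236 and 229 CPM in mutants, which lay within the range of the controls (log2 fold change -0.01, edgeR FDR = 0.913). *Ctnna1*, the host of *Lrrtm2*, was higher in every *Sox2* mutant library (91.5 to 112 CPM against 63.6 to 83.3) with an edgeR FDR of 0.0116. *Ctnna3* was below 1 CPM in all libraries (0.204 to 0.642).

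**Figure D2:**
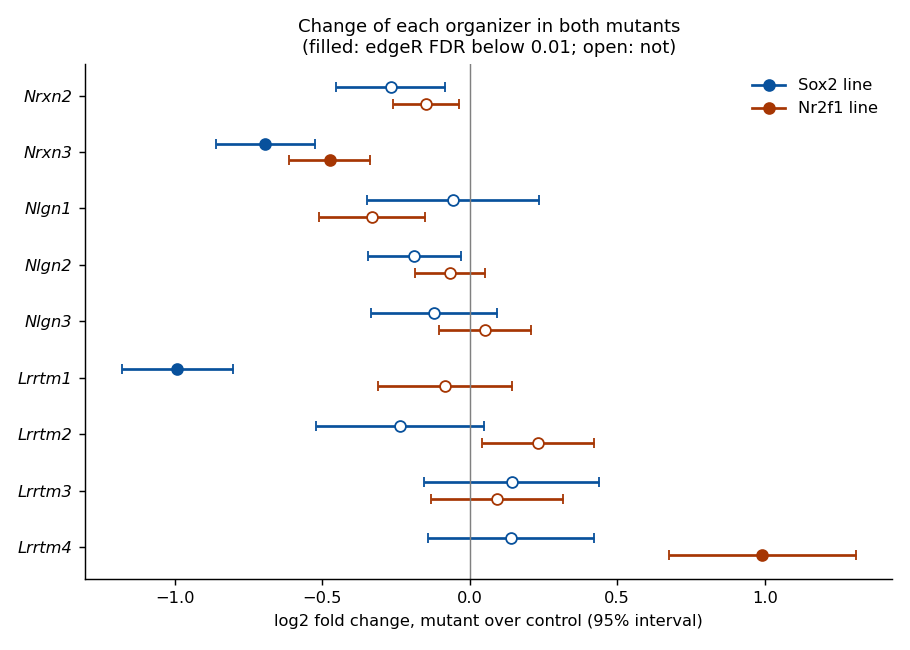
Log2 fold change of mutants over controls (horizontal axis) with its 95% interval for each gene in the *Sox2* line (blue) and the *Nr2f1* line (brown); filled points have an edgeR FDR below 0.01. *Lrrtm1* (-0.99) is far from 0 in the *Sox2* line alone in this plot, *Lrrtm4* (0.99) in the *Nr2f1* line, and *Nrxn3* is below 0 in both.

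*Lrrtm4*, whose protein also binds heparan sulfate proteoglycans, was the gene that rose. In *Nr2f1* controls CTRL_B, CTRL_D and CTRL_E it was at 8.59, 9.80 and 9.76 CPM, and in mutants MUT_A, MUT_B and MUT_C at 22.9, 15.6 and 17.5 CPM. All mutants were above all controls, but they were spread more widely. Its log2 fold change was 0.99 ± 0.141 (SE, 95% interval 0.67 to 1.31), with an edgeR FDR of 0.00347. Without MUT_A, the highest library, it was 0.82 (FDR = 0.00945). The call was lost without CTRL_B (0.93, FDR = 0.0223), CTRL_D (1.02, FDR = 0.0164) or CTRL_E (1.02, FDR = 0.0143), each of which leaves 2 controls.

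Other markers moved among these libraries. The fibroblast list summed to 2091, 1161 and 2535 CPM in MUT_A, MUT_B and MUT_C and to between 834 and 1225 in *Nr2f1* controls, and the GABAergic list to 191, 124 and 243 CPM against 128 to 136. The microglial list was at 174, 156 and 191 CPM in the 3 mutants against 123 to 144 in controls, the astrocyte list at 2019.2, 2093 and 2237 against 1862 to 1901, and the endothelial list at 512, 404 and 568 against 339 to 402, so that these 3 lists were above all controls in every mutant library. In the *Nr2f1* line edgeR and DESeq2 called 0 of 8 and 0 of 10 markers on the fibroblast and GABAergic lists, with 6 and 5 at an unadjusted edgeR p under 0.05. Of the microglial, astrocyte and endothelial markers edgeR called 0 of 11, 1 of 10 (*Aqp4*) and 0 of 8, with 6, 5 and 8 at an unadjusted p under 0.05, and DESeq2 called 4, 2 and 4. MUT_A also had 0 CPM of male-specific genes and the highest level of *Xist*, so that it held females only. The part of these differences in the change of *Lrrtm4* was not tested.

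In the *Sox2* line *Lrrtm4* was at 11.0, 11.3 and 9.04 CPM in controls and at 12.7, 11.3 and 10.6 CPM in mutants, and the groups overlapped. The log2 fold change was 0.14 (95% interval -0.14 to 0.42, edgeR FDR = 0.468), and 0.05 without CTRL_3 (FDR = 0.780). The difference between the lines, -0.85 ± 0.196 (SE), did not pass in edgeR's quasi-likelihood test (FDR = 0.0296). It passed in DESeq2 (FDR = 0.00219) and in the likelihood ratio test (FDR = 0.00323), the only 2 of 18 alternatives that called it. The highest FDR among the alternatives was 0.0920.

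*Lrrtm2*, a neurexin receptor of excitatory synapses, was at 26.7, 24.3 and 20.6 CPM in *Sox2* controls and at 21.5, 17.2 and 22.1 CPM in mutants. In *Nr2f1* controls it was at 29.1, 24.0 and 27.9 CPM, and all 3 mutants were above them at 33.4, 31.6 and 30.2 CPM. The log2 fold changes were -0.24 (edgeR FDR = 0.215) in *Sox2* mutants, whose libraries overlapped those of the controls, and 0.23 (FDR = 0.129) in *Nr2f1* mutants. *Lrrtm3* had overlapping groups in both lines, at 12.6, 11.8 and 10.5 CPM in *Sox2* controls against 14.9, 11.0 and 12.6 CPM in mutants, and at 14.1, 11.6 and 11.9 CPM in *Nr2f1* controls against 13.4, 13.9 and 12.9 CPM. Its changes were 0.14 (95% interval -0.15 to 0.44) and 0.09 (-0.13 to 0.32), with edgeR FDRs of 0.481 and 0.621. Without CTRL_3 the changes in *Sox2* mutants were -0.32 for *Lrrtm2* (FDR = 0.0719) and 0.08 for *Lrrtm3* (FDR = 0.697).

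Counted by libraries alone, *Nrxn2*, *Nrxn3*, *Nlgn2* and *Lrrtm1* had all *Sox2* mutants below all controls, 4 of the 9 genes, where the groups did not overlap for 37.9% of all genes tested. In the *Nr2f1* line *Nrxn2*, *Nrxn3* and *Nlgn1* were below and *Lrrtm2* and *Lrrtm4* above, 5 of the 9, where 28.6% of all genes did not overlap.

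The make-up of the LRRTM family differed along with these single genes. Summed per transcript length, the 4 LRRTMs were at 132 ± 11.5 TPM in *Sox2* controls and at 82.2 ± 5.80 in mutants (SD, n = 3). *Lrrtm1* made up 76.8%, 78.9% and 78.6% of that sum in the 3 controls and 63.2%, 66.7% and 62.9% in the 3 mutants. The shares of *Lrrtm2*, *Lrrtm3* and *Lrrtm4* were correspondingly higher, for example from 6.45% ± 0.195 to 11.6% ± 0.484 for *Lrrtm4*, although none of these 3 was called. In the *Nr2f1* line the sum was 138 ± 13.3 TPM in controls and 146 ± 14.3 in mutants. *Lrrtm1* went from 77.6% ± 1.08 to 70.8% ± 2.81 of the sum there and *Lrrtm4* went from 5.68% ± 0.825 to 10.9% ± 2.07. The shares of *Lrrtm1* did not overlap between mutants and controls in either line, and no test was made of shares. A share also depends on the other genes in the sum. In the *Nr2f1* line the level of *Lrrtm1* itself overlapped, at 108 ± 11.6 TPM in controls and 104 ± 12.6 in mutants. *Lrrtm4* was at 7.80 ± 0.521 and 15.9 ± 3.38 TPM there.

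**Figure D3:**
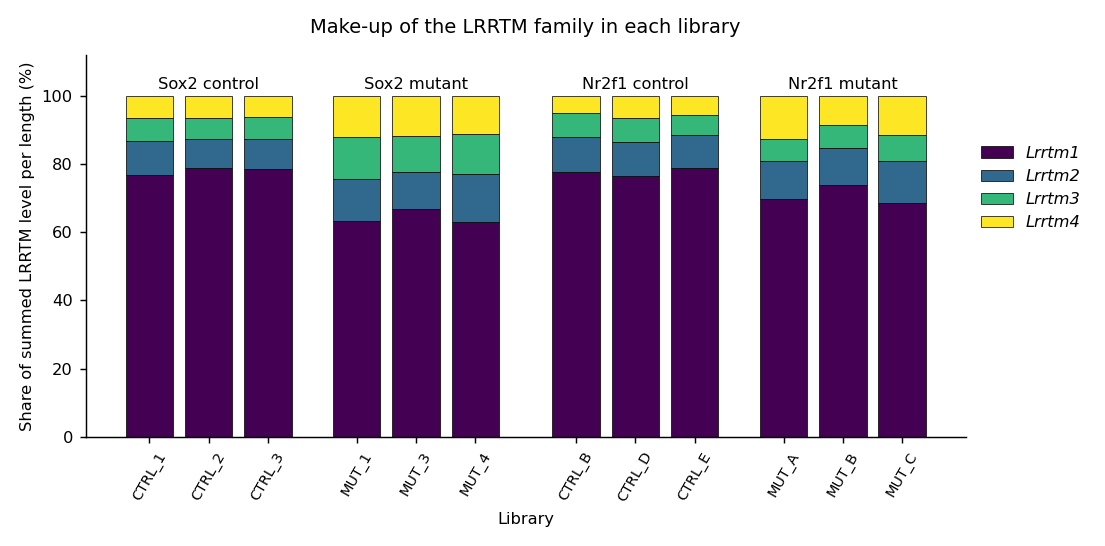
Share of each LRRTM gene in the summed level per transcript length of the 4 genes (vertical axis, percent) in each of the 12 libraries (stacked bars). *Lrrtm1* fills 76.6% to 78.9% of the bar in the 6 controls, 62.9% to 66.7% in *Sox2* mutants and 68.6% to 73.9% in *Nr2f1* mutants. In *Nr2f1* mutants *Lrrtm1* itself was not called.

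**Figure D4:**
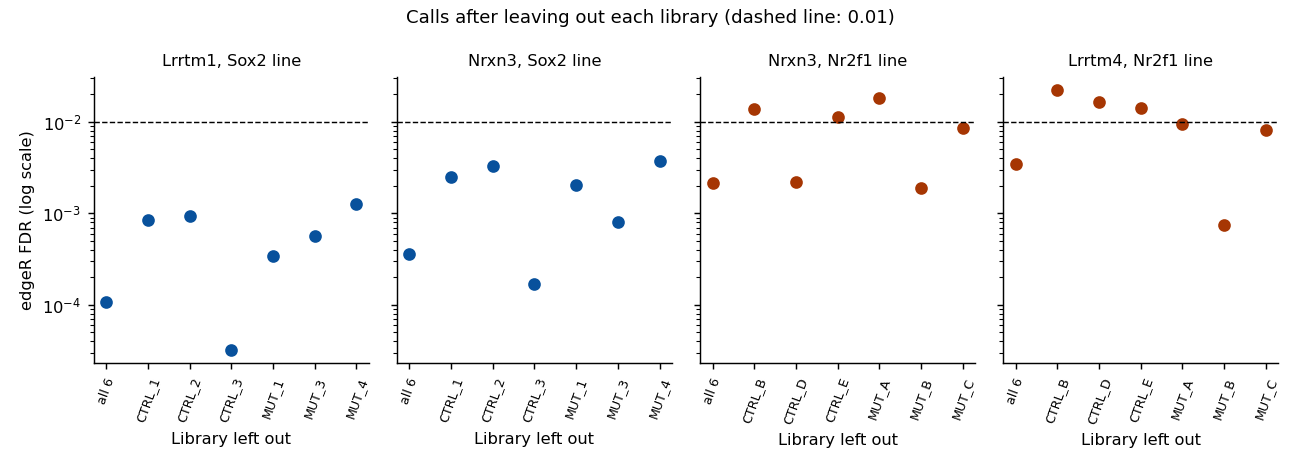
FDR of edgeR's quasi-likelihood test (vertical axis, log scale) for the 4 calls among the 9 genes with all 6 libraries of the line and after leaving out each library (horizontal axis); the dashed line is the threshold of 0.01. Both calls in *Sox2* mutants stay below the line throughout, and each call in *Nr2f1* mutants crosses it for 3 of the 6 libraries.

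Genes related to these organizers, here called partner genes, were followed through 129 listed symbols, some of which were not in the count tables. They encode proteins that the organizers bind, recruit or are spliced by, other leucine-rich organizers, shedding enzymes and the alpha-catenin hosts. In *Sox2* mutants 23 of the 120 tested were called, 9 higher and 14 lower, and in *Nr2f1* mutants 12 of the 118 tested, 5 higher and 7 lower. Over all genes 8.08% and 2.54% were called. The median log2 fold changes of the partner genes were -0.07 and -0.03, beside 0.000497 and 0.0138 over all genes. Of the called genes 7 were called in both lines, each in the same direction, which is 30.4% of those called in *Sox2* mutants and 58.3% of those in *Nr2f1* mutants. Over all genes 180 were called in both lines, 161 of them in the same direction, which is 14.3% and 45.5% of the calls. The lists were chosen with earlier results of these data known, so these shares are a description and not a test of the lists. The 7 partner genes were *Adgrl2*, *Celf4*, *Clstn2*, *Grid1*, *Homer2*, *Mdga1* and *Mpp3*. Without CTRL_3 the count in the *Sox2* line was 36, which held 21 of the 23 (all but *Fam19a4* and *Nxph4*). It was between 10 and 14 without CTRL_1, CTRL_2, MUT_1 or MUT_4, and the count in the *Nr2f1* line was 7 without MUT_A.

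Other membrane partners of neurexins fell wherever they were called, 5 of 14 tested in *Sox2* mutants and 4 of 13 in *Nr2f1* mutants. *Adgrl2*, a latrophilin, was at 272, 257 and 266 CPM in *Sox2* controls and at 86.2, 99.5 and 91.7 CPM in mutants. It was at 262, 276 and 256 CPM in *Nr2f1* controls and at 172, 180.3 and 181 CPM in mutants. The mutants were below the controls in both lines, with log2 fold changes of -1.52 (edgeR FDR = 8.27e-06) and -0.58 (FDR = 2.51e-04), and the changes differed by -0.94 (FDR = 2.80e-05). *Grid1*, a glutamate receptor delta subunit that meets neurexins through cerebellins, fell by 0.89 and 0.81 on the log2 scale in the 2 mutants. *Clstn2*, a calsyntenin, fell by 0.56 and 0.61, and *Adgrl3*, another latrophilin, fell by 0.51 in *Nr2f1* mutants. In *Sox2* mutants the change of *Adgrl3* was -0.45 and not called (edgeR FDR = 0.0199). Its changes were not shown to differ between the lines (FDR = 0.880).

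Secreted ligands of neurexins gave 1 call of 11 in *Sox2* mutants and 2 of 10 in *Nr2f1* mutants. *Cbln4*, a cerebellin, was at 21.7, 22.6 and 24.9 CPM in *Nr2f1* controls and at 40.4, 39.0 and 45.3 CPM in mutants, which did not overlap (log2 fold change 0.85, edgeR FDR = 4.38e-04). In *Sox2* mutants its change was -0.12 (FDR = 0.540), and the difference of -0.97 between the lines passed (FDR = 0.00395). *Cbln1* fell by 0.65 in *Nr2f1* mutants. Of the inhibitors of neuroligins, *Mdga1*, whose protein covers the neurexin binding face, rose in both lines, from 30.9, 29.0 and 30.2 CPM to 71.1, 45.8 and 61.5 in *Sox2* mutants and from 24.3, 25.6 and 23.8 to 36.9, 35.8 and 39.0 in *Nr2f1* mutants. The groups did not overlap, and the log2 fold changes were 0.98 (edgeR FDR = 0.00132) and 0.60 (FDR = 9.17e-04). *Mdga2* was not called (-0.03 and -0.12, edgeR FDRs of 0.879 and 0.380).

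Among 18 scaffolds of excitatory synapses 1 was higher and 6 lower in *Sox2* mutants, and 1 was higher and 1 lower in *Nr2f1* mutants. *Homer2*, which links glutamate receptors to the scaffold, fell by 0.79 and 0.89 on the log2 scale. *Shank2* was at 224, 208 and 185 CPM in *Sox2* controls and at 129, 111 and 133 CPM in mutants, and in *Nr2f1* mutants its change of -0.08 was not called (edgeR FDR = 0.475). *Magi3* and *Dlgap3* fell by 0.64 and 0.44 in *Sox2* mutants, and *Dlgap2* rose by 1.16 in *Nr2f1* mutants from low levels (1.73 to 2.22 CPM in controls). Changes in the other line were not called, at -0.20 for *Magi3* (edgeR FDR = 0.144), -0.34 for *Dlgap3* (FDR = 0.0168) and 0.70 for *Dlgap2* (FDR = 0.139). None of these genes was shown to differ between the lines (FDRs of 0.0537, 0.698 and 0.646). Of the 3 scaffolds of inhibitory synapses in the tables edgeR and DESeq2 called 0 in either line, with 0 and 1 at an unadjusted edgeR p under 0.05 in *Sox2* and *Nr2f1* mutants. Of the 18 presynaptic scaffolds tested, *Mpp3* rose in both lines, by 0.65 and 0.71.

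Splicing regulators set which neurexin and neuroligin isoforms are made, and 4 of 13 were called in *Sox2* mutants. *Srrm4*, which drives the inclusion of neuronal microexons, was at 137, 120.2 and 119 CPM in *Sox2* controls and at 84.8, 77.4 and 79.6 CPM in mutants (log2 fold change -0.64, edgeR FDR = 5.08e-04). In *Nr2f1* mutants the change of *Srrm4* was 0.01 (FDR = 0.908), and the difference passed (-0.64, FDR = 8.29e-04). *Celf4* rose by 0.76 and 0.73 in the 2 mutants, and *Khdrbs3* rose by 0.83 in *Sox2* mutants. In *Nr2f1* mutants the change of *Khdrbs3* was 0.37 and not called (edgeR FDR = 0.0494). Its changes were not shown to differ between the lines (FDR = 0.149). The gene counts do not resolve isoforms, so which forms of *Nrxn2*, *Nrxn3* or the neuroligins were made was not tested. Other leucine-rich organizers were called in *Sox2* mutants alone in these fits, *Lrrn3* (0.72) and *Ntrk3* (0.70), 2 of 21. *Ntrk3* was also above all controls in *Nr2f1* mutants (0.46, edgeR FDR = 0.0740). Its changes were not shown to differ between the lines (FDR = 0.600). In *Nr2f1* mutants edgeR called 0 of the 21 (9 at an unadjusted p under 0.05) and DESeq2 called 2.

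Among 11 proteoglycan and receptor phosphatase partners of LRRTMs 1 was called in each line, both lower. *Gpc1*, a glypican, fell by 0.28 in *Nr2f1* mutants. *Gpc4*, a glypican that binds LRRTM4 and was chosen for the text after its values were seen, fell by 0.69 in *Sox2* mutants. It was at 15.9, 15.3 and 13.8 CPM in *Sox2* controls and at 8.35, 10.9 and 8.63 CPM in mutants, and at 15.8, 15.03 and 23.5 CPM in *Nr2f1* controls and 35.8, 27.9 and 27.1 CPM in mutants. Mutants lay below controls in the first line and above them in the second, where the change of 0.74 did not pass (edgeR FDR = 0.0306). Of the 120 genes tested for a difference between the mutants 5 were called, *Adgrl2*, *Cbln4*, *Gpc4*, *Shank2* and *Srrm4*, all with the lower change in *Sox2* mutants. For every other partner gene called in 1 line only, the changes were not shown to differ between the mutants. Over all genes 1.44% were called, 1.11% with the lower change in *Sox2* mutants and 0.331% with the higher.

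Other partner genes called in *Sox2* mutants, named after their values were seen, were *Nova1* (0.50), a splicing regulator, *Nxph4* (1.17), a neurexophilin that binds neurexins, *Igsf21* (-0.41), an inhibitory organizer that binds neurexins, and *Fam19a4* (-0.95). The scaffolds among them were *Dlg1* (0.52), *Dlgap1* (-0.36) and *Apba1* (-0.43). Of 6 enzymes that shed ectodomains edgeR called 0 in either line, with 2 and 0 at an unadjusted p under 0.05 and 1 and 0 called by DESeq2.

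**Figure D5:**
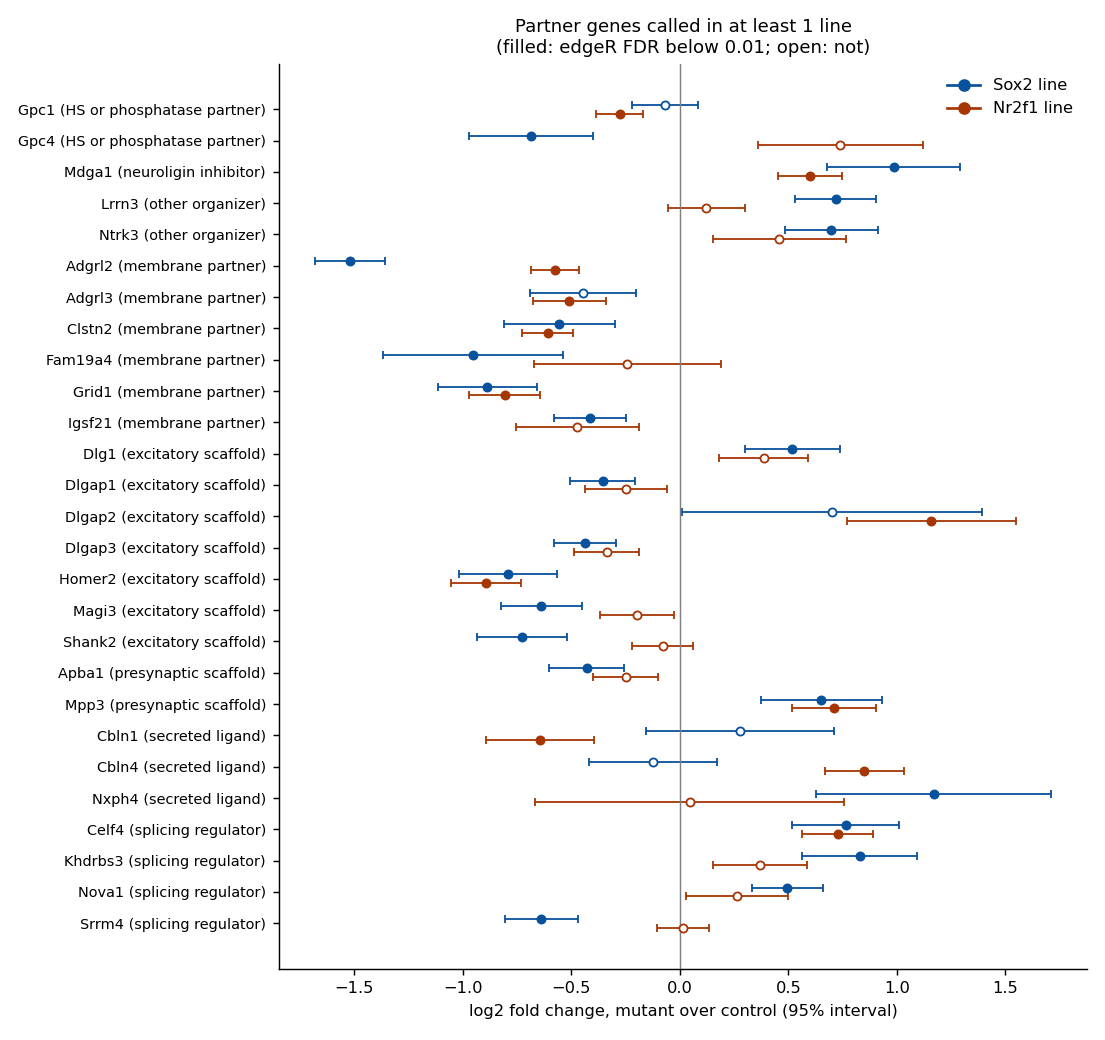
Log2 fold change of mutants over controls (horizontal axis) with its 95% interval for 27 listed partner genes called in at least 1 line, grouped by their role; filled points have an edgeR FDR below 0.01, in blue for the *Sox2* line and in brown for the *Nr2f1* line. *Adgrl2* (-1.52 and -0.58), *Grid1* and *Homer2* lie below 0 in both lines and *Mdga1*, *Celf4* and *Mpp3* above it, whereas *Gpc4* lies on opposite sides.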

How the data were processed

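RNA-seq was analysed in 12 libraries, 3 for each of 4 groups. The authors aligned reads with STAR and deposited RSEM expected counts per gene, without normalization, 1 table for each line (build mm10 per the labels, RefSeq transcriptome per the methods). Columns were assigned to groups by their names, and 7.77% of values were not whole and were rounded. Counts were tested with edgeR 4.0.16 (glmQLFit, glmQLFTest) in R 4.3.3. Low genes were removed with filterByExpr (at least 10 counts, 15 in total), and libraries were scaled by TMM within each fit. The CPM given were scaled within each line. Genes were called at a Benjamini-Hochberg FDR below 0.01, the study's threshold. The interaction of line and genotype was fitted over the 12 libraries. The labels do not say more of the replicates than that each is a pool of 3 animals, so p-values measure the spread between pools, and no exact test of 3 against 3 can go below p = 0.1. Levels between genes were divided by the mean length of GENCODE transcripts paired with RefSeq and scaled to the same total (TPM). Totals of 39293465 to 50095344 limit precision little beside the spread between pools.

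The text names all 9 genes, the targeted genes, the host genes, at most the 12 partner genes with the smallest p called in each line, whole lists of at most 4 genes, and the 3 genes most like each called gene; 1 called partner gene is counted but not reported here. Members and lists were chosen with earlier results of these data known. The tests were checked on simulated counts. Alternatives were other filters, upper quartile normalization, DESeq2 1.42.0, other edgeR tests, 1 fit over all libraries, a replicate block, FDR below 0.05, the longest transcript, and leaving out each library.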

Additional observations from a re-analysis of the deposited data

Results flagged for a closer look

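In edgeR's interaction test 1 of the 9 genes, both targeted genes and 5 partner genes changed differently in the mutants. Each value is a difference of log2 changes, *Sox2* mutants less *Nr2f1* mutants, with the FDR over all genes. *Lrrtm1* differed by -0.90 (FDR = 0.00257), with *Sox2* mutants at 50.3% and *Nr2f1* mutants at 94.3% of their controls. The targeted genes differed by -0.84 for *Sox2* (FDR = 0.00603) and by 1.19 for *Nr2f1* (FDR = 0.00742). *Adgrl2* differed by -0.94 (FDR = 2.80e-05) and fell in both lines. *Cbln4* differed by -0.97 (FDR = 0.00395) and rose in *Nr2f1* mutants. *Gpc4* differed by -1.42 (FDR = 0.00393). *Shank2* (-0.64, FDR = 0.00621) and *Srrm4* (-0.64, FDR = 8.29e-04) fell in *Sox2* mutants.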

How the results depend on the processing

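*Lrrtm1* and *Nrxn3* in *Sox2* mutants stayed called in all 14 alternatives run, with log2 fold changes of -1.05 to -0.89 and -0.75 to -0.65. In *Nr2f1* mutants *Nrxn3* and *Lrrtm4* were called in 10 of 13. No called value changed sign. The cause of the changes below was not tested, except that leaving out a library leaves fewer samples.

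With DESeq2, the likelihood ratio test and FDR below 0.05, genes called numbered 2468, 2351 and 3095 in the *Sox2* line (1261 in the test as reported), 1112, 1089 and 1154 in the *Nr2f1* line (396), and 544, 496 and 538 for the difference (231). Partner genes called numbered 46, 39 and 47 in the *Sox2* line (23) and 23, 21 and 21 in the *Nr2f1* line (12). The 9 genes gave 3 calls in the *Sox2* line with DESeq2 and FDR below 0.05 (2), 3 in the *Nr2f1* line with each of the 3 settings (2), and 2 for the difference with each (1). One fit over all libraries called 2075 genes in the *Sox2* line.

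Leaving out each library gave 494 to 2161 genes, 2 to 3 of the 9 and 10 to 36 partner genes in the *Sox2* line, 133 to 868 genes, 0 to 3 of the 9 and 7 to 14 partner genes in the *Nr2f1* line, and 133 to 308 genes and 0 to 1 of the 9 for the difference. Without *Sox2* CTRL_3 the count was 2161 genes, and without CTRL_1, CTRL_2 or MUT_4 it was 554, 494 and 495. In the *Nr2f1* line it was 868 without MUT_B and 133 to 226 without each other library. Of the 9, 0 remained called by edgeR in that line without CTRL_B or CTRL_E, with 5 at an unadjusted p under 0.05 in each.

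With the replicate number as a block in the *Sox2* line, where controls and mutants share the numbers 1 and 3, edgeR called 1611 genes, 2 of the 9 and 25 partner genes. The deviations of same-numbered libraries correlated with r of 0.217 and 0.206 over genes, and 2 pairs do not establish a pairing. No paired analysis was possible because the *Nr2f1* columns share 1 letter only, which also holds for the difference between the mutants. With the longest transcript, levels and shares per length moved beyond their spread in 29 cases. These were counted over the 9 genes, for levels in the controls of both lines and for shares in all 4 groups. Genes at about 10 CPM (*Lrrtm3*, *Lrrtm4*) rest on the fewest counts of the 9.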

Other observations

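For each called gene, the genes whose log2 CPM ran most alike over the 12 libraries, among 15396 tested in both lines, are given as a description, since all share these libraries and group differences dominate. For *Lrrtm1* they were *Col9a1* (Pearson's r = 0.990), *Ret* (0.985) and *Galnt9* (0.984). For *Nrxn3* they were *Nell1* (0.987), *Grid1* (0.977) and *Wnt9b* (0.977). For *Lrrtm4* they were *Brinp2* (0.965), *Cdh13* (0.958) and *Sdk2* (0.939).

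Within the family, levels of *Nrxn2* and *Nrxn3* ran together over the 12 libraries (r = 0.911), as did *Nlgn3* and *Lrrtm2* (0.911). The lowest values were those of *Lrrtm4* with *Nlgn1* (-0.61) and with *Nrxn3* (-0.48).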
